A study of Bos taurus with 6 samples.

Results

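The core genes of the integrated stress response examined here were ATF4, ATF5, DDIT3, ATF3, TRIB3, CHAC1, DDIT4, SESN2, EIF4EBP1 and VLDLR, in cultured bovine granulosa cells (GC). They were chosen by name, with earlier results of these data known. The rows taken were those of the deposited array table whose gene symbol equals one of these. The genes comprised 10 of the 20251 distinct symbols of the table. Each had 1 transcript cluster, as the array terms the probe group of a gene, out of 26773. The accession of each row carried the same symbol in the RefSeq annotation of ARS-UCD2.0 for 10 of 10 genes.

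GC, the steroid-producing cells that surround the oocyte in the follicle, were aspirated from small to medium sized follicles of abattoir ovaries, pooled over many cows of undefined cycle status and frozen before use. The 3 normal density cultures and the 3 high density cultures, which were plated with 10 times as many cells per well, were kept without serum on collagen for 9 days. The medium of both groups contained 20 ng/ml FSH, 50 ng/ml IGF-1 and 2 μM androstenedione, so that plating density was the only difference stated between them. RNA of each culture was hybridized to 1 Bovine Gene 1.0 ST Array, and the comparison asks how the higher plating density changed transcript abundance.

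In the integrated stress response, kinases that sense amino acid shortage, unfolded protein in the endoplasmic reticulum (ER), double-stranded RNA or haem shortage phosphorylate the translation factor eIF2. General translation is thereby lowered, while translation of the ATF4 mRNA is raised. ATF4 protein, a transcription factor of the basic leucine zipper (bZIP) family, then induces genes of amino acid supply, redox balance and feedback control, and under lasting stress also DDIT3, known as CHOP. Arrays measure the mRNA of these genes and neither eIF2 phosphorylation nor protein.

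The deposited values are log2 signals, which the authors had background corrected, normalized between arrays and summarized per transcript cluster with the RMA procedure. Array medians lay between 4.34 and 4.43. The 95th percentile of the 82 reporter control rows, 4.62, served as the control level, and in 51.2% of all transcript clusters the higher group mean did not exceed it. All 10 core genes exceeded it in the higher group. Changes are given as log2 fold changes of high over normal density from a limma fit over all transcript clusters with Benjamini-Hochberg adjustment. A gene is termed called when its fold change (FC) exceeded 1.5 and both its p-value and its adjusted p were below 0.05. These p-values set the difference of the group means against the spread between the 3 cultures per group, which limma moderates over all transcript clusters. Because the cells were pooled over many cows, this is not a spread between animals. Precision is limited by the number of arrays. Exact permutation of the group labels cannot give a p below 0.1.

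Of the marker genes of granulosa cells, 10 of 10 were above the control level at normal density. At high density 6 of them (60%) were called lower and 0 higher, beside 3.51% and 3.97% of all transcript clusters. At high density CYP19A1, the aromatase gene, was below the control level in all 3 cultures and FSHR, the FSH receptor gene, was above it in 2 of 3. The summed signal of all 10 granulosa markers on the log2 scale was between 12.37 and 12.51 at normal density and between 11.97 and 12.05 at high density. All 5 leukocyte and all 4 red blood cell markers were at or below the control level at both densities, as were 4 of 5 endothelial markers, VWF being the exception. Their summed signals were between 5.75 and 5.88 at normal and between 5.74 and 5.96 at high density for leukocytes, between 4.84 and 4.90 and between 4.87 and 5.10 for red blood cells, and between 6.05 and 6.09 and between 6.21 and 6.37 for endothelium. Of the genes listed as theca markers, CYP17A1 was below the control level at both densities and INSL3 was called higher. STAR was lower without a call, with a log2 fold change of −0.49 (adjusted p = 0.0105 by limma). Their sum was between 9.38 and 9.44 at normal density and between 9.68 and 9.91 at high density. It rests on STAR and INSL3, and whether their signals came from theca cells was not tested. In such bulk samples, fewer cells of a type and less RNA per cell cannot be told apart, and the part of these shifts in the results below was not tested.

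All 10 core genes were called higher at high density, where 3.97% of all transcript clusters were called higher and 3.51% lower. Of the transcript clusters above the control level in the higher group, 6.95% were called higher. The measured fold changes of the core genes ranged from 1.52 for ATF5 to 8.59 for CHAC1, and 5 of the 10 had a measured FC of at least 2. CHAC1 and TRIB3 were below the control level at normal density, and taken from that level their rises were at least 7.34-fold and 1.58-fold, so that 4 of the 10 reached an FC of 2 when these bounds were used. The median log2 fold change over the 10 genes was 0.99, or 0.90 with these bounds, against 0.02 over all transcript clusters. In each of the 10 genes every high density culture exceeded every normal density culture, as was the case for 17.8% of all transcript clusters.

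**Figure D1:**
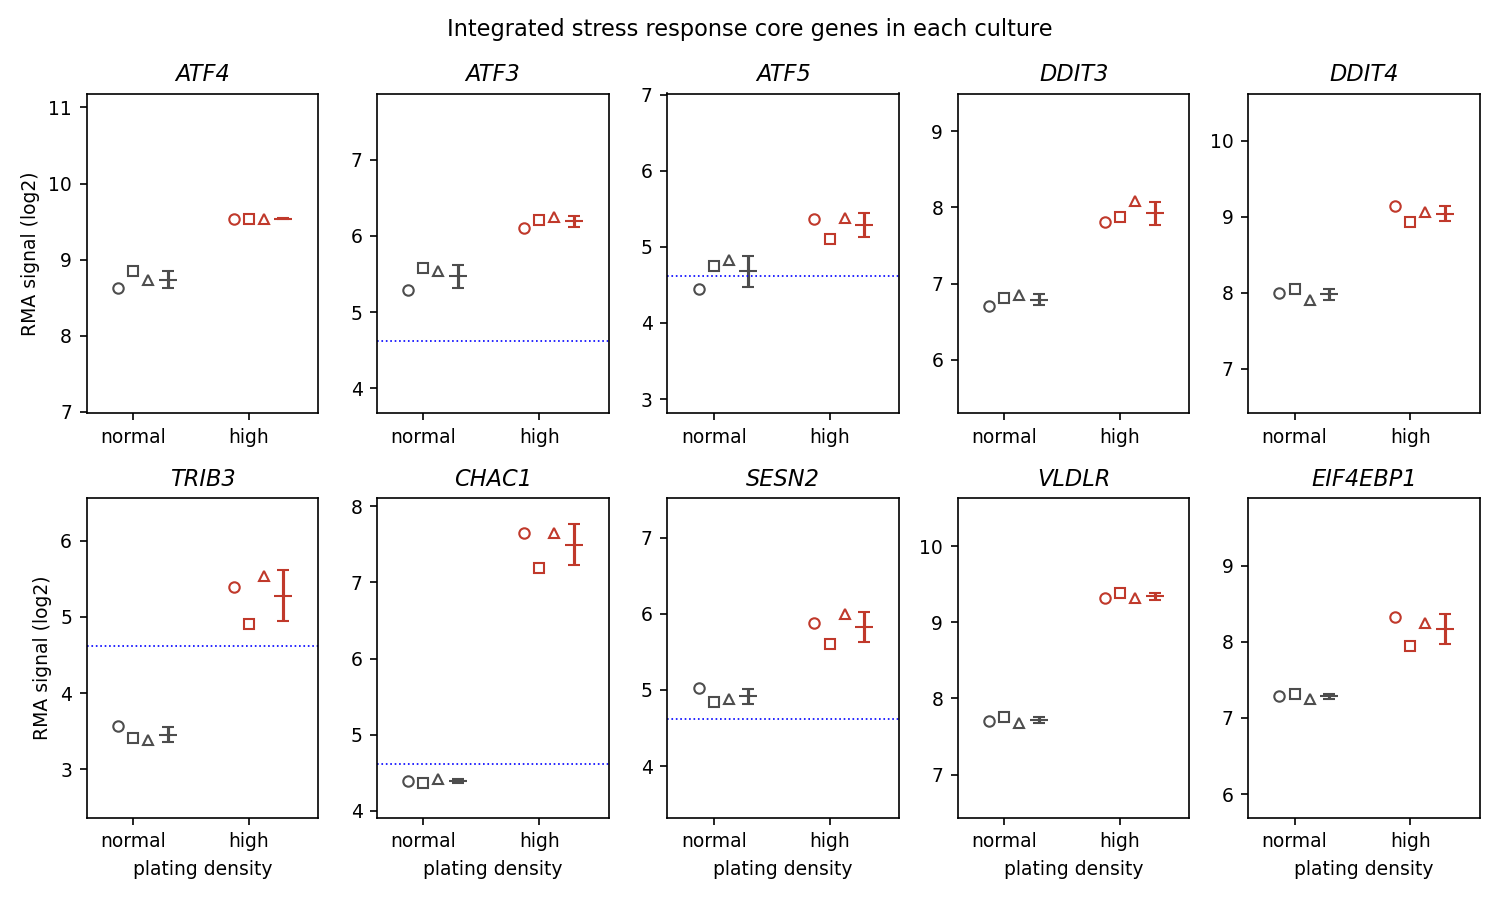
RMA signal (log2, vertical axis, each panel spanning the same number of log2 units) of each core gene at normal (grey) and high (red) plating density, with circles, squares and triangles for replicates 1, 2 and 3, horizontal bars with error bars for the mean ± SD (n = 3), and a dotted line at the control level of 4.62 where it lies within the panel. In all 10 panels the high density cultures lie above the normal density cultures, and the normal density signals of TRIB3 and CHAC1 lie below the control level.

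Among the transcription factors, ATF4 (transcript cluster 12858656), the central factor of the response, had signals of 8.62, 8.85 and 8.73 in the normal density cultures and of 9.53, 9.54 and 9.54 in the high density cultures. The high density cultures were nearly equal to each other, with an SD of 0.0044, whereas the normal density cultures had an SD of 0.11. The log2 fold change of ATF4 was 0.80 (standard error, SE, 0.08, adjusted p = 5.51e-04 by limma), an FC of 1.74.

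ATF5 (12751837), a close relative of ATF4 that is likewise controlled through translation, showed the smallest change. Its signals were 4.45, 4.75 and 4.82 at normal density and 5.37, 5.10 and 5.38 at high density. Normal density replicate 1 was below the control level and the other cultures were above it. The log2 fold change was 0.61 (SE 0.12, adjusted p = 0.0141 by limma), so that its FC of 1.52 lay just above the FC threshold. Without normal density replicate 1 it was 0.49 (adjusted p = 0.0406), and without high density replicate 1 or 3 it was 0.56 (adjusted p = 0.0507 and 0.0529), and the call was lost in each case. It was also lost with the methods' t-test, their analysis of variance per transcript cluster (adjusted p = 0.0802), and, at 0.56, when all arrays were shifted to a common median.

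DDIT3 (12862848), the C/EBP homologous protein that is induced downstream of ATF4, rose from 6.70, 6.81 and 6.84 to 7.80, 7.87 and 8.09. The gap between the highest normal density and the lowest high density culture was wider than the spread within either group. Its log2 fold change was 1.13 (SE 0.09, adjusted p = 2.74e-04 by limma), an FC of 2.19. For ATF3 (12739608), a stress-induced factor that often acts as a repressor, the signals were 5.29, 5.58 and 5.54 at normal density and 6.11, 6.21 and 6.25 at high density. ATF3 changed by 0.72 on the log2 scale (SE 0.09, adjusted p = 0.00209 by limma).

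CHAC1 (12688416), an enzyme that degrades glutathione and a sensitive ATF4 target, had the largest change of the core genes. At normal density its signals were 4.39, 4.36 and 4.42, all below the control level, and at high density they were 7.65, 7.19 and 7.65. High density replicate 2 was the lowest of its group but far above every normal density culture. The log2 fold change of 3.10 (SE 0.13, adjusted p = 2.05e-05 by limma) rested on normal density signals not above the control level. Because no normal density culture exceeded the control level, CHAC1 was at least 7.34-fold higher at high density when the control level was taken as the lower signal.

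TRIB3 (12720619), a pseudokinase that binds ATF4 and DDIT3 and restrains their activity, was likewise below the control level at normal density, with signals of 3.56, 3.40 and 3.38. At high density the signals were 5.39, 4.90 and 5.54, and high density replicate 2 was again the lowest. The measured log2 fold change was 1.83 (SE 0.16, adjusted p = 3.42e-04 by limma). Taken from the control level, the rise was at least 1.58-fold, so that most of the measured change of TRIB3 lay below that level.

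DDIT4, SESN2 and EIF4EBP1 code for proteins that restrain mTORC1, the growth kinase complex, or translation downstream of it. DDIT4 (12826569), also named REDD1, which restrains mTORC1 through the TSC complex, had signals of 7.99, 8.05 and 7.90 at normal density and 9.14, 8.93 and 9.06 at high density. Both groups were compact, and the log2 fold change was 1.06 (SE 0.08, adjusted p = 2.01e-04 by limma), an FC of 2.09.

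SESN2 (12781058), a leucine sensor that restrains mTORC1, rose from 5.02, 4.84 and 4.88 to 5.88, 5.60 and 5.99. These normal density signals were close to the control level but above it in all cultures. Its log2 fold change was 0.91 (SE 0.11, adjusted p = 0.00159 by limma). For EIF4EBP1 (12823743), which sequesters the cap-binding factor eIF4E unless mTORC1 phosphorylates it, the signals were 7.29, 7.31 and 7.25 and then 8.32, 7.95 and 8.25. The log2 fold change of EIF4EBP1 was 0.89 (SE 0.10, adjusted p = 0.00128 by limma). The spread was wider in the high density group, with an SD of 0.20 against 0.03.

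VLDLR (12892762), the receptor for very low density lipoprotein and reelin and a known ATF4 target, had the smallest SE of the core genes. Its signals were 7.71, 7.76 and 7.68 at normal density and 9.31, 9.39 and 9.32 at high density. Both SDs were 0.04, and the log2 fold change was 1.63 (SE 0.07, adjusted p = 1.78e-05 by limma), an FC of 3.09.

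**Figure D2:**
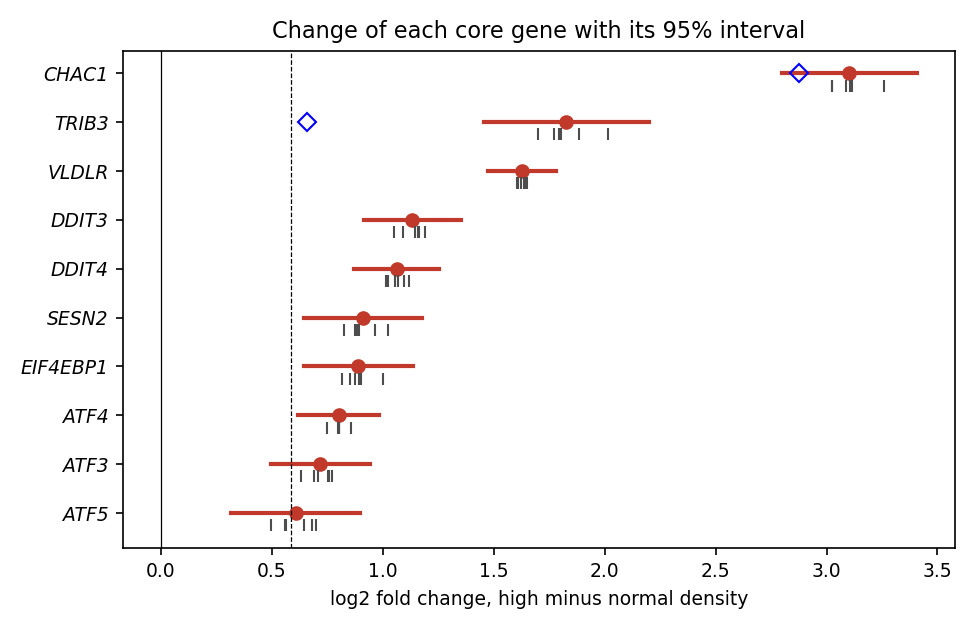
Log2 fold change, high minus normal density, of each core gene (red points) with its 95% confidence interval from limma (red lines), the values with each culture left out in turn (grey ticks), and for CHAC1 and TRIB3 the change measured from the control level (blue diamonds). The dashed line marks the FC threshold of 1.5, and the interval of CHAC1, from 2.80 to 3.41, overlaps none of the others.

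In order of size the changes were those of CHAC1, TRIB3, VLDLR, DDIT3, DDIT4, SESN2, EIF4EBP1, ATF4, ATF3 and ATF5. The 95% interval of CHAC1, from 2.80 to 3.41, lay above all others. Those of TRIB3, from 1.45 to 2.20, and VLDLR, from 1.47 to 1.78, overlapped, and both lay above that of DDIT3, from 0.91 to 1.35. From DDIT3 downwards each interval overlapped that of the next gene, so the order of these neighbours is not resolved. The fold changes of TRIB3 and CHAC1 depend on signals below the control level. Taken from that level, CHAC1 changed by at least 2.87 on the log2 scale and kept its first place. TRIB3 changed by at least 0.66, which is below the 0.72 of ATF3, so its place in the order is open to that limit.

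Among the high density cultures, replicate 2 stood apart over the whole table, with a median absolute deviation from the group mean of 0.11 against 0.08 and 0.07 in replicates 1 and 3. It had the lowest high density signal for 6 of the 10 core genes, ATF5, DDIT4, TRIB3, CHAC1, SESN2 and EIF4EBP1. For ATF3, ATF4, DDIT3 and VLDLR replicate 1 was the lowest. The change of TRIB3 from the normal density mean was 1.94, 1.45 and 2.09 in high density replicates 1, 2 and 3, and that of CHAC1 was 3.26, 2.79 and 3.26. ATF4, by contrast, changed by 0.80, 0.80 and 0.81 in the same cultures. Without high density replicate 2 all 10 genes were called, with a log2 fold change of 2.01 for TRIB3, 3.26 for CHAC1 and 1.02 for SESN2.

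**Figure D3:**
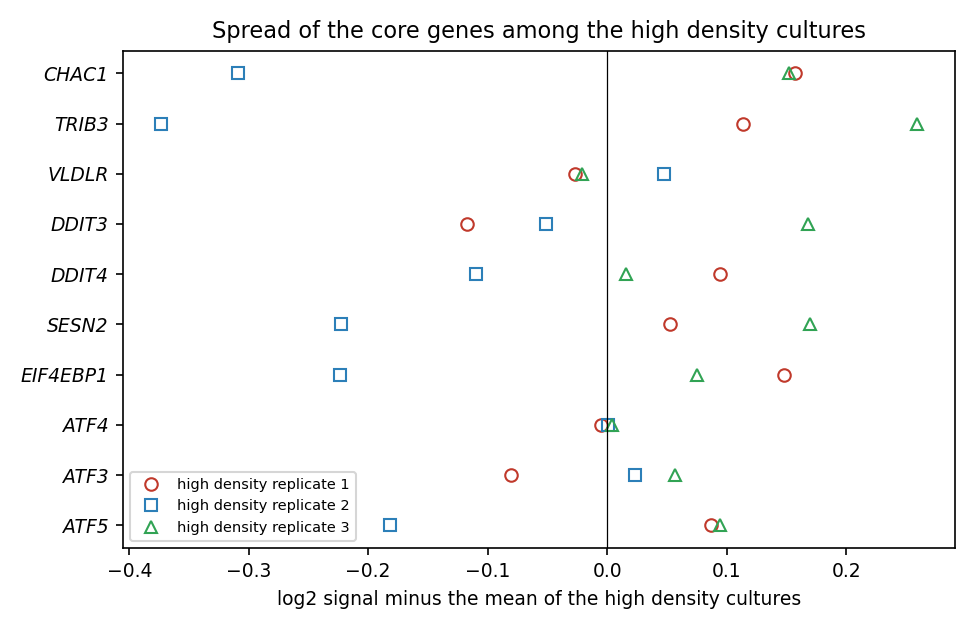
Log2 signal of each core gene in high density replicates 1 (red circles), 2 (blue squares) and 3 (green triangles) minus the mean of these cultures, with the genes ordered by their log2 fold change. Replicate 2 lies lowest for 6 of the 10 genes, most clearly for TRIB3 and CHAC1, while the cultures nearly coincide for ATF4.

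The eIF2 kinases, the phosphatase subunits and their regulators were compared together with the subunits of eIF2 and of its exchange factor eIF2B. This list held 20 genes, all above the control level. None was called, beside 3.97% of all transcript clusters called higher and 3.51% lower, shares at which few of 20 genes would be called. The median log2 fold change was −0.10. limma found 6 of the 20 at an unadjusted p below 0.05, and the methods' t-test called 0. At an adjusted p below 0.05 and any FC 3 of the 20 passed, as did 5106 of all 26773 transcript clusters. EIF2AK4, the amino acid sensing kinase GCN2, had a log2 fold change of 0.29 (SE 0.06, adjusted p = 0.0169 by limma). EIF2AK3, the ER kinase PERK, had 0.14, and EIF2AK1, the haem-regulated kinase, −0.14, with adjusted p of 0.213 and 0.180. EIF2AK2, the double-stranded RNA activated kinase PKR, had −0.52 (SE 0.12, adjusted p = 0.0263 by limma). Without high density replicate 2, 1 gene of this list was called.

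PPP1R15A, known as GADD34, the stress-induced subunit of the phosphatase that removes the phosphate from eIF2, had signals of 5.55, 5.56 and 5.57 at normal density and 5.99, 5.91 and 6.08 at high density. The groups did not overlap, and the log2 fold change of 0.43 (SE 0.07, adjusted p = 0.00551 by limma) was below the FC threshold. The constitutive subunit PPP1R15B had a log2 fold change of −0.03 (adjusted p = 0.860).

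Other bZIP factors were listed, among them known partners of ATF4 and its relatives. Of 22 measured, 3 (13.6%) were called higher and 0 lower, beside 3.97% and 3.51% of all transcript clusters. CEBPG, a known partner of ATF4, rose from 6.76, 6.91 and 6.96 to 7.65, 7.82 and 7.84, a log2 fold change of 0.89 (SE 0.09, adjusted p = 6.07e-04 by limma). JUNB and JUND, components of AP-1, changed by 0.84 and 0.79 on the log2 scale. CEBPD had a log2 fold change of −0.54 (SE 0.07, adjusted p = 0.00178 by limma) and missed the call only at the FC threshold. CEBPA had one of 0.20 (adjusted p = 0.370 by limma) and was not called. At an adjusted p below 0.05 and any FC, 5 of the 22 were higher and 3 lower. Of all 26773 transcript clusters 2314 were higher and 2792 lower at that threshold. CEBPA was below the control level in both groups.

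Genes of amino acid supply that are known as ATF4 targets were represented by 34 genes, of which 14 (41.2%) were called higher and 0 lower. The share of all transcript clusters called higher was 3.97%, and the median log2 fold change of the list was 0.45. The called genes were 8 of 12 synthesis enzymes and 6 of 9 transporters, whereas of 12 aminoacyl-tRNA synthetases limma called 0. Of the synthetases 7 had an unadjusted p below 0.05 and 5 an adjusted p below 0.05 at any FC, and the methods' t-test called 0. The largest rises were those of SLC6A9, a glycine transporter, with an FC of 3.99, PYCR1, of proline synthesis, with 3.69, and SLC1A4, a transporter of neutral amino acids, with 3.55. A further transcript cluster of SLC6A9 lay below the control level and was not called, with an FC of 1.23. ASNS, asparagine synthetase and a classical ATF4 target named here after its value was seen, had a log2 fold change of 0.50 (SE 0.07, adjusted p = 0.00338 by limma) and did not reach the FC threshold.

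Of 19 measured stress effectors among the targets of ATF4 and DDIT3, 7 (36.8%) were called higher and 0 lower, beside 3.97% and 3.51% of all transcript clusters. The 7 included CEBPG, which is also counted among the bZIP factors, VEGFA, also counted among targets of hypoxia-inducible factor, and GADD45A and PMAIP1, also counted among p53 targets. Both group means of PMAIP1 were below the control level, and without such transcript clusters 6 were called. STC2, the secreted glycoprotein stanniocalcin 2, rose from 4.08 ± 0.13 to 6.63 ± 0.05 (SD, n = 3). Its normal density signals were all below the control level, from which it was at least 4.03-fold higher. ERO1A, an oxidase of the ER that DDIT3 is known to induce, had a log2 fold change of 1.49 (SE 0.12, adjusted p = 2.30e-04 by limma). VEGFA, an angiogenic growth factor, had one of 1.08 (SE 0.08, adjusted p = 1.55e-04 by limma).

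**Figure D4:**
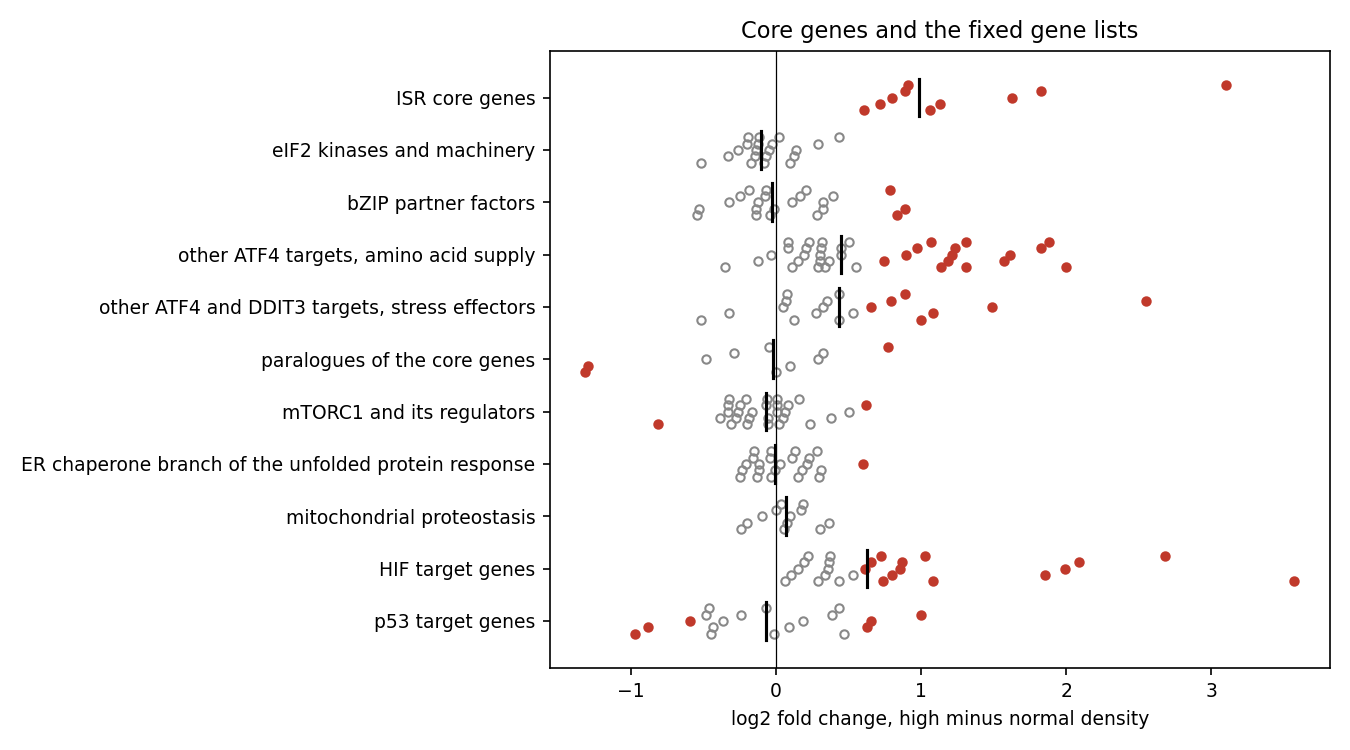
Log2 fold change, high minus normal density, of the transcript clusters of the 10 core genes and of 10 gene lists written from general knowledge, with called ones as filled red points, others as open grey points and the median over genes as a black bar. All 10 core genes and part of the ATF4 and HIF target lists lie to the right, while the eIF2 list has no called gene and a median of −0.10. Of all transcript clusters 3.97% were called higher and 3.51% lower. The core genes and lists were chosen with earlier results of these data known.

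Paralogues of the core genes did not share their direction throughout. Of 10 paralogues 1 was called higher and 2 lower, beside 3.97% and 3.51% of all transcript clusters. TRIB2, a paralogue of TRIB3, fell from 9.07, 9.31 and 9.05 to 7.89, 7.90 and 7.69, a log2 fold change of −1.31 (SE 0.10, adjusted p = 1.96e-04 by limma). TRIB1 had a log2 fold change of 0.29 and was not called. SESN3 fell from 7.86, 7.82 and 7.99 to 6.44, 6.82 and 6.52, a log2 fold change of −1.30 (SE 0.11, adjusted p = 3.31e-04 by limma), and SESN1 had −0.48 without a call.

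DDIT4L rose by 0.77 on the log2 scale (SE 0.11, adjusted p = 0.00298 by limma). No other paralogue was called, and the log2 fold changes were −0.29 for CHAC2, −0.05 for EIF4EBP2, 0.00 for EIF4EBP3, 0.10 for LRP8 and 0.33 for JDP2. The difference between a core gene and its paralogue was taken from their log ratio in each culture, over 11 pairs including ATF4 with ATF5. It was 2.21 for SESN2 over SESN3 and 0.93 for EIF4EBP1 over EIF4EBP2. For TRIB3 over TRIB2 the measured difference was 3.14, and it was at least 1.97 with TRIB3 taken from the control level at normal density. For CHAC1 over CHAC2 it was 3.39, and at least 3.16 when CHAC1 was taken from that level. In 10 of the 11 pairs the groups were fully separated (p = 0.1 in a two-sided exact permutation test, which is the smallest it can give, and 0.11 after Benjamini-Hochberg adjustment). Each of the 10 core genes separated the groups by itself, so this count tells little about the paralogues. The share over pairs with other genes was not computed. For ATF4 over ATF5 the difference was 0.19 and the groups were not fully separated (exact permutation p = 0.3). With 3 cultures per group no pair could have reached a p below 0.05.

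Of 28 genes of mTORC1 and its regulators, 1 was called higher and 1 lower, 3.57% in each direction, which is close to the 3.97% and 3.51% of all transcript clusters. SEH1L, a subunit of the GATOR2 complex, had a log2 fold change of 0.62 (SE 0.08, adjusted p = 0.00183 by limma). DEPDC5, of the GATOR1 complex, which restrains mTORC1 under amino acid shortage, was lower at 7.46 ± 0.03 against 8.27 ± 0.03 (SD, n = 3), and its log2 fold change was −0.82 (SE 0.06, adjusted p = 2.14e-04 by limma). The median over this list was −0.07.

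The chaperone branch of the unfolded protein response, which is driven by ATF6 and XBP1, shares the ER as a source of stress with PERK. Of its 23 genes 1 (4.35%) was called higher and 0 lower, with a median log2 fold change of −0.01. This share is close to the 3.97% of all transcript clusters called higher. The called gene was EDEM1, which takes misfolded glycoproteins to degradation, with 0.60 (SE 0.07, adjusted p = 0.00142 by limma). Its FC of 1.52 was close to the threshold, and the call was lost without normal density replicate 1, normal density replicate 3 or high density replicate 1. HSPA5, the chaperone BiP, named here after its value was seen, had a log2 fold change of 0.21 (SE 0.06, adjusted p = 0.0608 by limma).

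DDIT4 and VLDLR are also known as targets of hypoxia-inducible factor (HIF), so HIF target genes were examined beside them. Of 24 measured, 14 (58.3%) were called higher and 0 lower, beside 3.97% and 3.51% of all transcript clusters, with a median log2 fold change of 0.63. The largest measured log2 fold changes were 3.57 for EGLN3, a prolyl hydroxylase, 2.68 for LOX, a lysyl oxidase, and 2.09 for NDRG1. The normal density signals of EGLN3 and LOX were below the control level, from which their rises were at least 10.4-fold and 2.60-fold. The place of LOX before NDRG1, which was above that level in all cultures with an FC of 4.25, therefore rests on signals below it. The part of these changes in the rises of DDIT4 and VLDLR was not tested.

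In the RefSeq annotation of ARS-UCD2.0, DDIT3 overlaps MARS1 and ATF5 overlaps NUP62 and IL4I1. DDIT3 also overlaps LOC132345297, and VLDLR overlaps LOC132345950, for which no values are given here. MARS1, NUP62 and IL4I1, named after their values were seen, were not called. Their log2 fold changes were 0.19 for MARS1, −0.04 for NUP62 and −0.05 for IL4I1.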

How the data were processed

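RNA from 6 GC cultures, 3 per plating density and 1 array each, was measured. The authors scanned the Bovine Gene 1.0 ST Arrays and processed them in Expression Console with RMA (background reduction, normalization and gene-level summary), and log2 signals per transcript cluster and culture were deposited. The genome build behind the annotation is not given in the sources used here. The table was read whole, with 0 columns of other samples, and the log2 signals were not normalized further.

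R 4.3.3 and limma 3.58.1 were used to fit a linear model with empirical Bayes moderation and no covariates over all 26773 transcript clusters, with Benjamini-Hochberg adjustment and the methods' thresholds (FC above 1.5, p and FDR below 0.05). The scripts were tested on simulated data. Intervals are 95% confidence intervals. A bound sets each signal of the lower group to at least the control level. Gene lists were matched by symbol, older symbol or accession, and a gene counted as called when any of its transcript clusters was. CEBPB, TNFRSF10B, INSIG2, PHLDA3 and AEN were not matched and not analysed here, and 1 further paralogue, not among the 10 counted, is not reported here. The core genes and lists were chosen with earlier results of these data known, and the lists come from general knowledge. Genes named are the core genes, up to 3 called genes per list and direction, the eIF2 kinases and phosphatase subunits, the C/EBP factors, the paralogues, the called mTORC1 genes and the 5 symbols most like the core genes. The cultures were analysed as unpaired, because the sources do not say whether same-numbered cultures shared a cell pool. Plots were made in Python 3.11.15 with matplotlib 3.10.9.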

Additional observations from a re-analysis of the deposited data

How the results depend on the processing

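Each of the 17 alternatives kept the direction of all 10 core genes, and the median log2 fold change stayed between 0.94 and 1.07. CHAC1, VLDLR, DDIT3 and DDIT4 were called in all of them. Of the core genes 4 were called with the Welch version of the methods' t-test and 5 with limma's treat, which tests against the FC threshold, and 9 or 10 when any culture was left out. The labels number the replicates alike at both densities, but the sources do not say whether same-numbered cultures came from the same cell pool. The deviations of same-numbered cultures correlated at 0.05, −0.05 and −0.04, which does not settle this with 3 cultures per group. The main fit took the cultures as unpaired. With the replicate block all 10 core genes were called, with a log2 fold change of 0.61 for ATF5 (adjusted p = 0.0283), and 2020 transcript clusters in all against 2005 without it.

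The list counts moved as follows, and where the cause is not the stricter or looser threshold itself, the cause was not tested. The Welch version called 6 genes of amino acid supply, 3 stress effectors, 1 paralogue, 1 mTORC1 gene and 3 p53 targets. treat called 0 bZIP factors, 8 genes of amino acid supply, 3 stress effectors, 0 of the ER chaperone branch, 0 mTORC1 genes, 7 HIF targets and 0 p53 targets. At the FDR threshold alone, 3 eIF2 genes, 8 bZIP factors, 24 genes of amino acid supply, 13 stress effectors, 5 of the ER chaperone branch, 2 of mitochondrial proteostasis, 7 paralogues, 7 mTORC1 genes and 12 p53 targets passed. Of all 26773 transcript clusters 5106 passed that threshold. Array weights gave 1 eIF2 gene, 0 of the ER chaperone branch and 1 mTORC1 gene, and the shift to the same median 0 of the ER chaperone branch and 1 mTORC1 gene. With each culture left out, the counts were between 0 and 1 for the eIF2 list and for the ER chaperone branch and between 1 and 2 for the mTORC1 list, with 1 without high density replicate 2 in the eIF2 and mTORC1 lists. Signals near the control level limit the fold changes of TRIB3, CHAC1 and ATF5.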

Other observations

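Of 19 measured p53 target genes, a group to which SESN2 is also known to belong, 3 (15.8%) were called higher and 3 lower, beside 3.97% and 3.51% of all transcript clusters, with a median log2 fold change of −0.06. GADD45A and PLK3 were called higher, with log2 fold changes of 0.66 and 0.63, as was PMAIP1, whose means of 2.80 (normal density) and 3.80 (high density) were both below the control level. TP53INP1, ZMAT3 and XPC were called lower, with log2 fold changes of −0.97, −0.88 and −0.59. Of 12 genes of mitochondrial proteostasis limma called 0 and the methods' t-test 0, with 4 at an unadjusted p below 0.05 and a median log2 fold change of 0.07.

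The symbols whose signals over the 6 cultures were most like the mean centred signal of the core genes, by Pearson r among 11240 named transcript clusters above the control level, were THY1, RNF157, CLSTN2, RHOD and RBP4. RBP4 had the lowest r of these, 0.999. The points share the split into density groups, and 1620 of the transcript clusters had r above 0.9.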
